A study of Mus musculus with 6 samples.

Results

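Insulin-like growth factor 1 (Igf1), the receptors Igf1r and Insr, and the IGF binding proteins Igfbp1 to Igfbp7 were followed in libraries labelled endosteal mesenchymal stromal cells, the stromal cells on the inner surface of bone. Several defining stromal markers were near 0 in the cKO libraries, so the cell type is given here as a label. These 10 genes were chosen by symbol, and all 10 were found among the 55471 genes measured. RNA was sequenced in 3 libraries labelled Bap1 cKO and 3 libraries labelled Bap1 WT, all from C57BL/6J mice. The Bap1 cKO genotype is Prx1-cre;Bap1fl/fl, in which Cre recombinase is driven by the Prx1 promoter of limb bud mesenchyme. The Bap1 WT libraries are Bap1fl/fl, so both groups carry the floxed allele and the controls differ by the absence of Cre. Bap1 is a deubiquitinase that removes ubiquitin from histone H2A. Age and sex of the mice, and whether each library came from a separate animal, are not given in the sources used here, so the p-values below cover no more than the spread among these 6 libraries. "cKO" and "WT" below stand for the libraries carrying those labels.

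IGF1 is a secreted growth factor made by osteoblasts and marrow stroma as well as by the liver, and it drives proliferation and survival through the tyrosine kinase Igf1r. The insulin receptor Insr is the close relative of Igf1r and forms hybrids with it. Most IGF binding proteins bind IGFs with high affinity in the extracellular space. They hold the growth factor away from its receptor or release it when proteases cleave them, and several also bind matrix or cells on their own. Binding proteins are stored in bone matrix together with IGFs.

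Igfbp6 and Igfbp2 together made up most of the binding protein RNA in each cKO library, and Igfbp7 did so in the WT libraries. The larger part was Igfbp6 in cKO replicates 1 and 2 and Igfbp2 in replicate 3 alone. Igfbp6 and Igfbp2 were near 0 in WT and had the highest mean levels of the members in cKO, whereas Igfbp5 and Igfbp7 were lower in cKO. Igf1r was higher in cKO, and the cKO values of Igf1 and Igfbp4 lay on both sides of the WT values. The values are RPKM, reads scaled by transcript length and library size, so levels can be compared between genes. A gene was tested when its mean over the 6 libraries reached 1 RPKM, with limma on log2(RPKM + 1), and passed when the Benjamini-Hochberg adjusted p over all 12223 tested genes lay under 0.05.

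Igfbp2 and Igfbp5 lie next to each other on chromosome 1 and changed in opposite directions, and Igfbp6 on chromosome 15 was near 0 in WT and high in every cKO library, so the promoters of these 3 genes are shown. The windows run from 250 bases before to 50 bases after the RefSeq start (GRCm38.p6), read in the direction of the gene. Igfbp2 is chr1:72824230-72824529 on the plus strand, Igfbp5 is chr1:72874816-72875115 on the minus strand, and Igfbp6 is chr15:102143936-102144235 on the plus strand. Capitals mark matches on either strand to the TATA box TATAAA, the CCAAT box, the GC box GGGCGG and the FOXO motif GTAAACA, and no match overlapped another.
Igfbp2: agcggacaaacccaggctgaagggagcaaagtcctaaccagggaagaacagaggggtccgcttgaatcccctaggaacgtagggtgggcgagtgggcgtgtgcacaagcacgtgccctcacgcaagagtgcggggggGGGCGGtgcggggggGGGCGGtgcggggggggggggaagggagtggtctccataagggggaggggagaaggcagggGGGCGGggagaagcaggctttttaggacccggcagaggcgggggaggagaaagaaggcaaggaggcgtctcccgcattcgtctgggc
Igfbp5: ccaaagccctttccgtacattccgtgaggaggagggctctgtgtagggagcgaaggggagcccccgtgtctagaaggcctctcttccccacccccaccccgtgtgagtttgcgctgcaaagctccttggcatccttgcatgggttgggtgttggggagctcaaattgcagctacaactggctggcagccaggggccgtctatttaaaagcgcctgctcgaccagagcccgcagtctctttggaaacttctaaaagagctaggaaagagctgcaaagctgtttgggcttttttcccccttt
Igfbp6: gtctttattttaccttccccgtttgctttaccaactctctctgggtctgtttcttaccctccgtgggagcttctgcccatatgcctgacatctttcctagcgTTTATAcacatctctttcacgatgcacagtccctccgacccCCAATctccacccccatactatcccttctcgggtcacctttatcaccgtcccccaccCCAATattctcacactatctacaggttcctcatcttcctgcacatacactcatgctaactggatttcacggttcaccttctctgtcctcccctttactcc
The Igfbp2 window held 3 copies of GGGCGG. Of the 32851 RefSeq promoter windows, 35.7% hold at least 1 copy on either strand. The Igfbp6 window held 2 copies of CCAAT, where 37.4% of windows hold at least 1. It also held 1 TATAAA on the opposite strand, and 13.6% of windows hold at least 1 on either strand. No match to these letters was found in the Igfbp5 window. The RefSeq start of Igfbp6 lies 176 bases upstream of the GENCODE gene start, a difference written as -176.

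Promoter windows were listed for 9 of the 10 members, all except Insr. GTAAACA was in 0 of the 9 windows and in 3.65% of all windows. CpG content differed among the members. Igf1r had 48 CpG dinucleotides in its 300 bases, Igfbp3 had 37, Igfbp7 had 33, Igfbp4 had 27 and Igfbp2 had 18, against a median of 7 over all windows. Igfbp5 had 10, Igfbp6 and Igfbp1 had 8 each, and Igf1 had 6. A high CpG count did not always go with high RNA, since Igfbp3 was almost silent with 37 CpGs and Igfbp6 had 224 to 345 RPKM in cKO with 8. The RefSeq start minus the GENCODE gene start was 2846 bases for Igf1 and -570 for Igf1r. Igfbp2 had 2 windows listed, and the nearer to the GENCODE start was used. These counts describe the windows and carry no test.

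Estimated from the steps between low values, depth was 13000000 to 22200000 fragments in the cKO libraries and 13200000 to 14900000 fragments in the WT libraries. Bap1 itself had 28.3, 25.2 and 23 RPKM in cKO and 22.8, 22.7 and 24 RPKM in WT, a log2 difference of 0.13 ± 0.10 (SE; limma adjusted p = 0.29). A value over the whole gene does not show whether floxed exons were lost, so it does not check the labels. Of 15 stromal markers, 9 stood at 1 RPKM or more in every cKO library and 13 in every WT library. Their summed level was 159 to 252 RPKM in cKO and 2637 to 2797 RPKM in WT. Col1a2, Col1a1, Cxcl12 and Col3a1 carried the WT sum. In cKO the largest single value was that of Prrx1 in replicates 1 and 2 (72.24 and 39.46 RPKM) and of Col1a1 in replicate 3 (71.44 RPKM). Thy1 had 0, 0 and 0.22 RPKM in cKO and 10.7 to 14.8 RPKM in WT. Among the limb mesenchyme genes, Prrx1 averaged 52.4 RPKM in cKO and 75.6 RPKM in WT, and Twist1 averaged 15.4 RPKM in cKO and 17 RPKM in WT, and neither passed (limma adjusted p = 0.0628 and 0.204). Pdgfra was higher in cKO, at 13.4 against 7.56 RPKM in WT (limma adjusted p = 0.0451). Lepr, a marker of marrow stroma, stayed at or under 0.14 RPKM in all 6 libraries. Of 14 kidney tubule markers, 5 reached 1 RPKM in every cKO library and 1 in every WT library, with sums of 7403, 6089 and 1900 RPKM in cKO replicates 1 to 3 and 7.38 to 9.39 RPKM in WT. Umod and Calb1, which define tubule segments, were listed at 0 throughout, and Cdh1 and Epcam stayed at or under 0.29 RPKM. The smooth muscle markers summed to 120, 224 and 2611 RPKM in cKO replicates 1 to 3 and to 2155 to 2420 RPKM in WT. Adipocyte markers summed to 1.79 to 3.99 RPKM in cKO and 458 to 471 RPKM in WT, nearly all of it Fabp4 and Pparg. Osteoblast markers summed to 13.3 to 35.5 RPKM in cKO and 367 to 429 RPKM in WT, nearly all of it Spp1 and Alpl. Chondrocyte markers summed to 30.5, 57.2 and 120 RPKM in cKO replicates 1 to 3 and to 73.7 to 82.5 RPKM in WT. Of these, Sox9 and Comp passed as higher in cKO (limma adjusted p = 0.00212 and 0.0159). Col2a1 did not pass (limma adjusted p = 0.194), and Acan was under the minimum mean. The part of these markers in the results on the IGF genes was not tested, and in bulk RNA fewer cells of a type cannot be told apart from less RNA per cell.

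Of the 10 members, 8 reached the minimum mean and 2, Igfbp1 and Igfbp3, did not. Among the 8, 3 were higher in cKO, 2 were lower and 3 did not pass, where 34.7% of all tested genes were higher, 26.5% were lower and 61.2% passed in either direction (limma, adjusted p under 0.05). The cKO values lay above all WT values for 3 members and below them for 3, where 39.2% of all tested genes lay above, 29.8% below and 69% did not overlap in either direction. Igfbp2 and Igfbp6 reached the minimum mean only through cKO, so their pass of the filter already required a difference. The median log2 difference of the 8 was 0.54, against 0.09 over all tested genes. These shares lie near those of all genes and single out nothing about the members as a group.

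**Figure D1:**
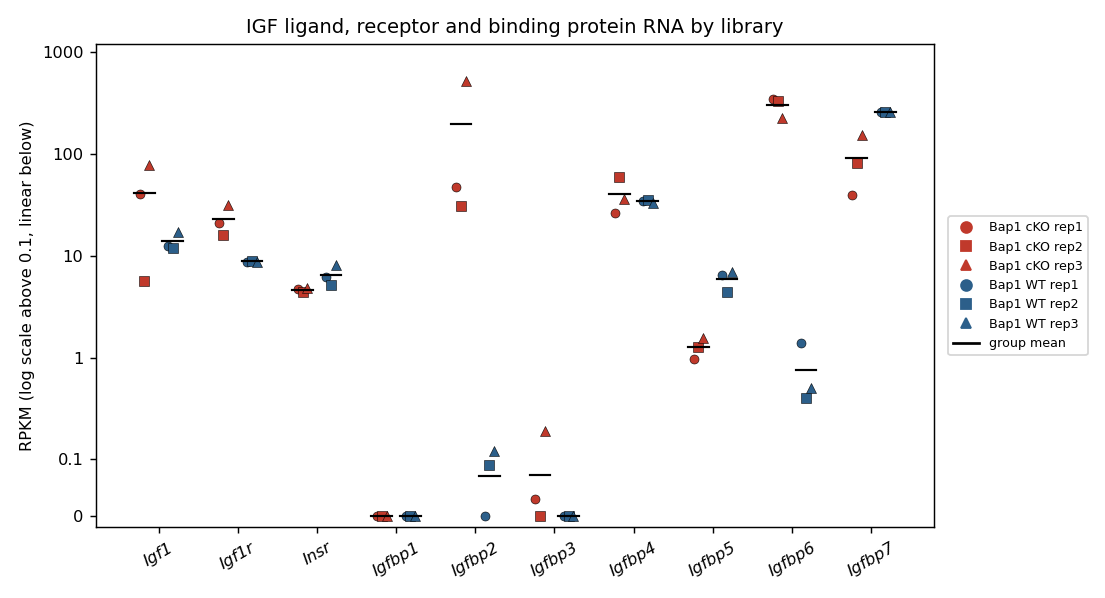
RPKM of each member in every library, with the Bap1 cKO libraries left of the Bap1 WT libraries for each gene, symbols for the replicate number and black bars for group means; the axis is logarithmic above 0.1 RPKM and linear below. Igfbp6 stands at 224 to 345 RPKM in cKO and 0.4 to 1.38 RPKM in WT, and Igfbp1 is at 0 in all 6 libraries.

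Igf1 (chromosome 10, 87858265 to 87937042, GRCm38, plus strand), the ligand, had 40.2, 5.62 and 77.9 RPKM in cKO replicates 1 to 3, against 12.6, 11.9 and 17.1 RPKM in WT. Replicates 1 and 3 of cKO stood above every WT library and replicate 2 stood below every one, so the groups overlapped. The highest cKO library had 13.9 times the level of the lowest, against 1.43 times in WT. The log2 difference was 0.92 ± 0.85 (SE), with a limma adjusted p of 0.379. Igf1 passed without cKO replicate 2, with a log2 difference of 1.96 and a limma adjusted p of 0.00393. The antisense gene Igf1os, which overlaps Igf1, reached at most 0.17 RPKM.

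Igf1r (chromosome 7, 67952827 to 68233668, plus strand), the receptor kinase for IGF1, had 21, 15.8 and 31.6 RPKM in cKO and 8.74, 8.9 and 8.71 RPKM in WT. All cKO libraries stood above all WT libraries, which differed among themselves by at most 1.02 times. Igf1r rose 2.6-fold, to 22.8 ± 8.05 RPKM in cKO against 8.78 ± 0.102 RPKM in WT (mean ± SD, n = 3 each), with a log2 difference of 1.23 ± 0.23 (SE; limma adjusted p = 0.00366). The 899 tested genes of chromosome 7 had a median log2 difference of 0.64. With each chromosome centred on its median, Igf1r kept a log2 difference of 0.59 and missed the threshold (limma adjusted p = 0.0686).

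Insr (chromosome 8, 3122061 to 3279617, minus strand), the insulin receptor, had 4.74, 4.36 and 4.81 RPKM in cKO and 6.16, 5.15 and 8.07 RPKM in WT. Every cKO value lay below every WT value, but the difference of -0.39 ± 0.16 (log2, SE) did not pass (limma adjusted p = 0.0745). It passed without WT replicate 2 (limma adjusted p = 0.0377) and with scaling by the median of ratios (0.0418). The ratio of Igf1r to Insr RNA was 4.44, 3.63 and 6.58 in cKO and 1.42, 1.73 and 1.08 in WT. In both groups Igf1r was thus the more abundant receptor RNA per length. The sum of both receptors was 20.2 to 36.4 RPKM in cKO and 14.1 to 16.8 RPKM in WT.

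Igfbp6 (chromosome 15, 102144362 to 102149511, plus strand) encodes a binding protein with a marked preference for IGF-II. Its level was 345, 334 and 224 RPKM in cKO and 1.38, 0.4 and 0.5 RPKM in WT. The WT values stand for about 19.4, 5.1 and 7.2 fragments by the estimated depths, so the WT level rests on few reads. Igfbp6 rose 396-fold, to 301 ± 66.7 RPKM in cKO against 0.76 ± 0.539 RPKM in WT (SD, n = 3 each), and 669-fold when WT replicate 1 was left out. On the log2 scale the difference was 7.44 ± 0.25 (SE; limma adjusted p = 3.89e-06), and 8.60 with a pseudocount of 0.1, where that of Igfbp2 was the larger. Within cKO the highest library had 1.54 times the level of the lowest. Chromosome 15 as a whole had a median log2 difference of -0.14.

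Igfbp2 (chromosome 1, 72824503 to 72852474, plus strand), a binding protein abundant in fetal tissues, had 47, 31 and 514 RPKM in cKO. In WT it was listed at 0, 0.09 and 0.12 RPKM, about 0, 1.4 and 2.1 fragments, which is under the floor of 3 fragments in each library, so no fold is given. All cKO libraries lay far above all WT libraries. Igfbp2 rose with a log2 difference of 6.43 ± 0.98 (SE; limma adjusted p = 0.00153), and of 5.20 without cKO replicate 3 (adjusted p = 1.04e-05). With WT under the floor, the size of this difference depends on the pseudocount of 1, and it was 7.33 with 0.5 and 9.14 with 0.1. Replicate 3 of cKO held 16.6 times the Igfbp2 level of replicate 2. Replicate 3 was also the deepest cKO library and had the lowest sum of kidney tubule markers in cKO. Its sums of smooth muscle, stromal, osteoblast, chondrocyte and general epithelium markers were the highest in cKO. The WT libraries, with Igfbp2 near 0, had smooth muscle sums of 2155 to 2420 RPKM. No link of these sums or of depth to Igfbp2 was tested.

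Igfbp5 (chromosome 1, 72857932 to 72874884, minus strand), a binding protein that attaches to bone matrix, had 0.97, 1.28 and 1.55 RPKM in cKO and 6.47, 4.44 and 6.91 RPKM in WT. Every cKO library was below every WT library. Igfbp5 fell 4.69-fold, to 1.27 ± 0.29 RPKM in cKO against 5.94 ± 1.32 RPKM in WT (SD, n = 3 each), with a log2 difference of -1.60 ± 0.19 (SE; limma adjusted p = 0.000504). The cKO values correspond to about 73.8 to 201.5 fragments.

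Igfbp7 (chromosome 5, 77349240 to 77408041, minus strand), a relative that binds IGFs weakly, had 39.8, 82 and 155 RPKM in cKO and 259, 261 and 257 RPKM in WT. The WT libraries were nearly equal, whereas the highest cKO library had 3.88 times the level of the lowest. Igfbp7 fell 2.81-fold, to 92.1 ± 58 RPKM in cKO against 259 ± 1.59 RPKM in WT (SD, n = 3 each), with a log2 difference of -1.69 ± 0.44 (SE; limma adjusted p = 0.0146). Leaving out cKO replicate 3, the cKO library nearest to WT, made the decrease 4.25-fold, and leaving out cKO replicate 1 made it 2.19-fold. With any 1 WT library left out, Igfbp7 passed only narrowly (limma adjusted p = 0.0485 to 0.0499).

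Igfbp4 (chromosome 11, 99041244 to 99054392, plus strand), an inhibitory binding protein cleaved by the protease Pappa, had 26.2, 59.3 and 36.1 RPKM in cKO and 34.5, 35.3 and 33.1 RPKM in WT. Replicate 1 of cKO lay below the WT values, and replicates 2 and 3 above them. The log2 difference of 0.16 ± 0.27 (SE) did not pass (limma adjusted p = 0.641). Its sign turned without cKO replicate 2, to -0.15, and with each chromosome centred, to -0.26. The median for chromosome 11 was 0.42.

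Igfbp3 (chromosome 11, 7206086 to 7213923, minus strand), the main IGF carrier of serum, had 0.03, 0 and 0.19 RPKM in cKO and was listed at 0 in the 3 WT libraries. The value in cKO replicate 3 stands for about 9.6 fragments and that in replicate 1 for about 0.9. With no minimum mean the limma adjusted p was 0.326. Igfbp1 (chromosome 11, 7197782 to 7202546, plus strand), which the liver secretes under the control of insulin, was listed at 0 in all 6 libraries. A count of 0 fragments allows up to 0.098 to 0.168 RPKM of Igfbp1 in cKO and 0.146 to 0.165 RPKM in WT, by counting error alone. Of the 3 liver markers, Apoa1 and Ttr were likewise at 0 throughout, and Alb reached at most 0.05 RPKM.

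**Figure D2:**
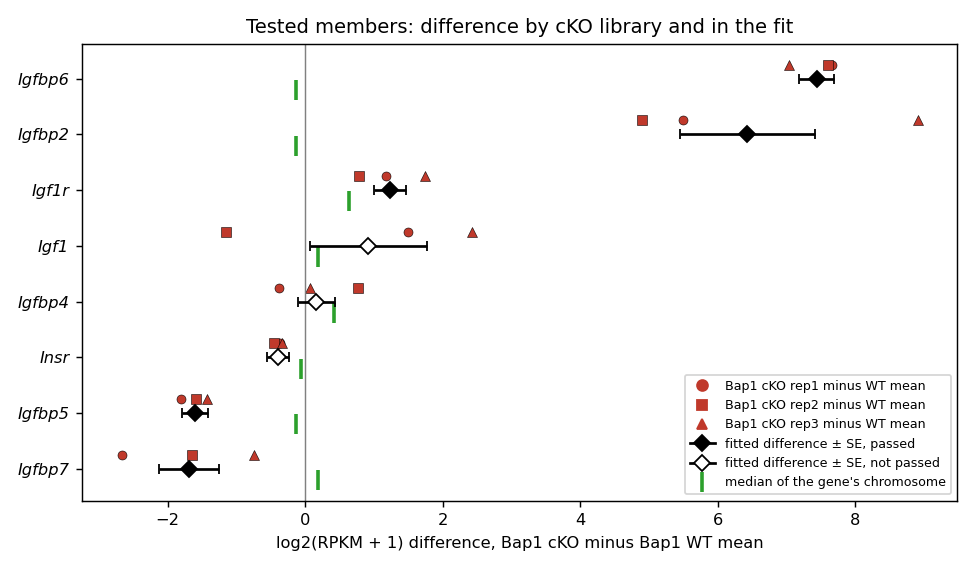
Difference in log2(RPKM + 1) from the WT mean for the 8 tested members, with red symbols for each cKO library, black diamonds with SE bars for the fitted cKO minus WT difference (filled when it passed), and green marks for the median of the gene's chromosome. The red symbols of Igf1 and Igfbp4 lie on both sides of 0, and those of the other 6 genes on one side.

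Set against the WT libraries one at a time, each cKO library had all 8 tested members outside the WT range. Over all tested genes 88.8%, 88.5% and 86.9% lay outside it in cKO replicates 1, 2 and 3, so a gene outside the range was the usual case. In cKO replicate 1, 4 members stood above and 4 below WT (48.4% and 40.4% of all tested genes), with log2 differences from -2.67 for Igfbp7 to 7.66 for Igfbp6. In cKO replicate 2 the split was again 4 and 4 (50% and 38.5% of all tested genes), and Igf1 (-1.15) and Igfbp4 (0.77) had signs opposite to those in replicate 1 (1.49 and -0.38). In cKO replicate 3, 5 members stood above and 3 below (49.2% and 37.7% of all tested genes), with Igfbp2 at 8.91 and Igfbp7 at -0.74.

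Binding protein RNA was made up of different genes in each group. The RPKM of Igfbp1 to Igfbp7 summed to 459, 507 and 930 in cKO and to 302, 301 and 298 in WT. Igfbp6 made up 75.2%, 65.8% and 24.1% of the sum in cKO replicates 1 to 3, against 0.133% to 0.458% in WT. Igfbp2 made up 10.2%, 6.1% and 55.2% in cKO and at most 0.0403% in WT. Igfbp7 made up 8.68% to 16.6% in cKO and 85.9% to 86.6% in WT. Shares of Igfbp4 overlapped between the groups, at 3.88% to 11.7% in cKO and 11.1% to 11.7% in WT. The shares describe the libraries and were not tested.

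**Figure D3:**
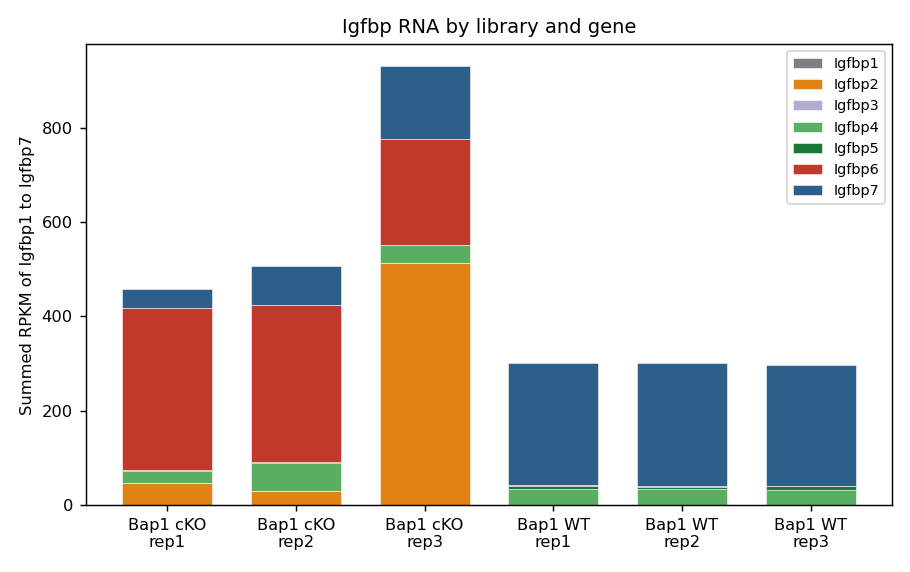
Summed RPKM of Igfbp1 to Igfbp7 in each library, stacked by gene, with Bap1 cKO replicates at the left and Bap1 WT replicates at the right. Igfbp7 fills 85.9% to 86.6% of each WT bar, and Igfbp6 and Igfbp2 together fill most of each cKO bar.

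Ordered by mean level, the cKO libraries had Igfbp6, Igfbp2, Igfbp7, Igf1, Igfbp4, Igf1r, Insr, Igfbp5, Igfbp3 and Igfbp1. Each of the first 5 overlapped the next gene in range, while Igf1r, Insr and Igfbp5 did not. In the WT libraries the order was Igfbp7, Igfbp4, Igf1, Igf1r, Insr, Igfbp5, Igfbp6 and Igfbp2, with Igfbp1 and Igfbp3 at 0. There the neighbours in the order did not overlap in range except Insr with Igfbp5, and Igfbp2 with the genes listed at 0.

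The binding protein genes lie partly in pairs. Igfbp2 and Igfbp5 end 5.46 kb apart and point towards each other, and Igfbp1 and Igfbp3 end 3.54 kb apart in the same arrangement. Within 500 kb of Igfbp2 and Igfbp5, 6 other protein-coding genes are annotated, 3 were tested and 0 passed, where 61.2% of all tested genes did. At an unadjusted limma p under 0.05, 0 of the 3 passed as well. The nearest of them, the ribosomal protein gene Rpl37a, starts 113 kb before Igfbp2 (-113.2 kb) and had a log2 difference of -0.14 ± 0.06 (SE; limma adjusted p = 0.0901). Rpl37a passed as lower with scaling by the median of ratios (0.0186) and with quantile normalisation (0.0264). None of the 3 other genes near Igfbp1 and Igfbp3 reached the minimum mean.

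Igfbp6 has more neighbours. Within 500 kb of it 41 other protein-coding genes are annotated, 19 were tested, 2 were higher and 9 lower in cKO. Over all tested genes 34.7% were higher, 26.5% were lower and 61.2% passed in either direction. The gene just upstream, Spryd3, fell with a log2 difference of -0.71 ± 0.09 (SE; limma adjusted p = 0.000628). Tns2, which encodes the adhesion protein tensin 2, fell by 1.76 ± 0.17 (log2, SE; limma adjusted p = 2e-04). The keratin Krt6a had 22.8, 13.7 and 4.09 RPKM in cKO and was listed at 0 in WT (limma adjusted p = 0.00126), and reads it shares with its close copy Krt6b make its level uncertain. Spryd3, Tns2 and Krt6a were chosen after their values were seen. Krt6a reached the minimum mean only through cKO, so its pass of the filter already required a difference.

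**Figure D4:**
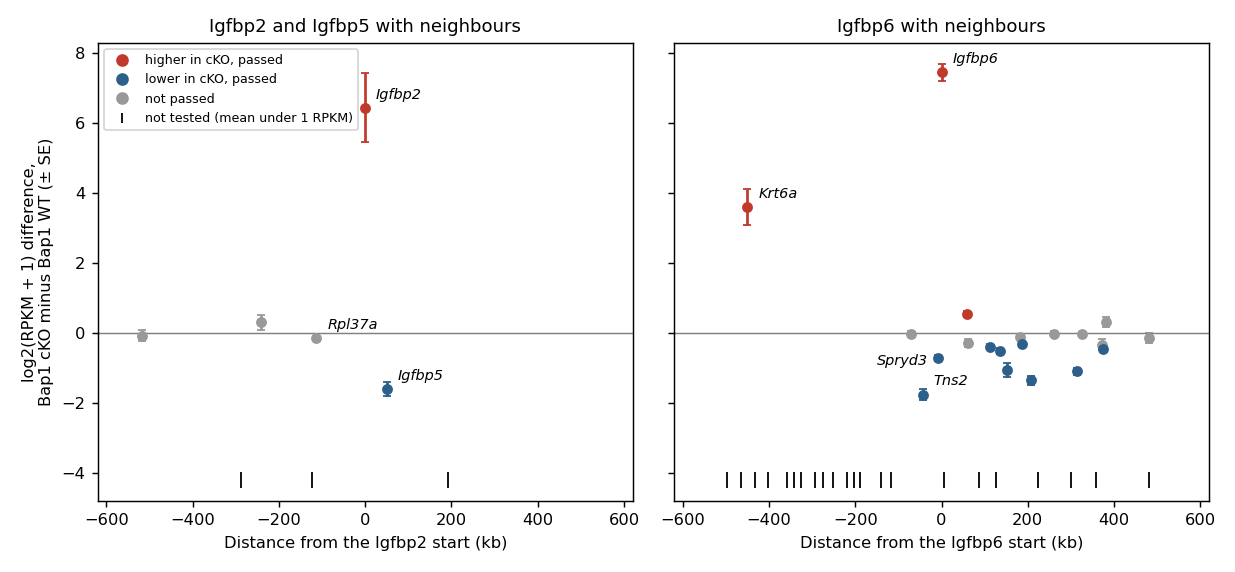
Log2(RPKM + 1) difference, cKO minus WT with SE bars, of tested protein-coding genes by the distance of their start from the start of Igfbp2 (left) or Igfbp6 (right); ticks at the bottom mark genes under the minimum mean. Igfbp2 at 6.43 and Igfbp5 at -1.60 stand on opposite sides of 0, and the other 3 tested genes of that window did not pass.

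Of 59 other genes of the pathway, listed by role, 49 reached the minimum mean, 22 were higher and 12 lower in cKO. The share that passed was 69.4%, near the 61.2% of all tested genes, and their median log2 difference was 0.33 against 0.09 over all genes. Stc2, Ptprz1 and Grb10 reached the minimum mean only through cKO, and Pappa only through WT. For these genes the pass of the filter already required a difference. Among ligands, Igf2 had 3.59, 15.5 and 1.77 RPKM in cKO and 1.49, 0.98 and 1.17 RPKM in WT. The ranges of Igf2 did not overlap, and it did not pass (limma adjusted p = 0.0826), though it did without cKO replicate 3 (0.017) and with sample weights (0.0146). Igf2 lies on chromosome 7, and its log2 difference of 1.43 was 0.79 with each chromosome centred (limma adjusted p = 0.313). Without cKO replicate 2 it was 0.69 (limma adjusted p = 0.0626). The insulin genes Ins1 and Ins2 and the orphan receptor Insrr were listed at 0 in every library. Igf2r, which clears IGF-II, had a log2 difference of 0.19 ± 0.13 (SE; limma adjusted p = 0.264) and passed without cKO replicate 2 (0.023). Igfals, the serum partner of Igfbp3, was at 0 in cKO and at most 0.14 RPKM in WT.

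Of 7 genes for proteases of the binding proteins and their inhibitors 4 were tested, and 3 rose and 1 fell. Over all tested genes 34.7% were higher in cKO and 26.5% lower. Pappa, the protease that cleaves Igfbp4, had 0.28, 0.07 and 0.28 RPKM in cKO and 9.55, 7.55 and 8.35 RPKM in WT, a 40.4-fold decrease (log2 difference -2.97 ± 0.15 SE; limma adjusted p = 1.7e-05). Stc2, a secreted inhibitor of Pappa, had 200.2, 137 and 78 RPKM in cKO and 0.04, 0.06 and 0.07 RPKM in WT. Stc2 rose with a log2 difference of 6.94 ± 0.32 (SE; limma adjusted p = 1.23e-05), and no fold is given because a WT library lay under 3 fragments. Its log2 difference was 7.86 with a pseudocount of 0.5 and 9.69 with 0.1. The proteases Adam12 and Htra1, which also cleave binding proteins, rose 5.22-fold and 2.22-fold, with limma adjusted p of 6.46e-05 and 0.000143. Both lie on chromosome 7. With each chromosome centred, Adam12 had a log2 difference of 1.53 in place of 2.17 and Htra1 of 0.46 in place of 1.10 (limma adjusted p = 0.000301 and 0.00732). Pappa2, which cleaves Igfbp5, had 0.03, 0 and 0.02 RPKM in cKO and 0.9, 1.36 and 1.49 RPKM in WT and was under the minimum mean.

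Surface partners of binding proteins went both ways, with 2 of 7 tested genes higher and 4 lower, where 34.7% and 26.5% of all tested genes were. Ptprz1, a phosphatase receptor bound by Igfbp2, rose 68.7-fold, to 20.9 ± 2.53 RPKM in cKO against 0.303 ± 0.0577 RPKM in WT (SD, n = 3 each; limma adjusted p = 2.73e-06). Tmem219, a receptor of Igfbp3, rose 1.88-fold, and did not pass once chromosome medians were subtracted (limma adjusted p = 0.101). The integrin chain Itgav fell 2.3-fold and the prohibitin Phb2, which binds Igfbp6, fell 1.46-fold (limma adjusted p = 0.000239 and 0.000529).

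Among adaptors that couple the receptors to their kinases, 5 of 10 tested genes rose and 2 fell, against 34.7% and 26.5% of all tested genes. The 2 adaptors that fell were the insulin receptor substrates. Irs1 had 2.61, 2.05 and 1.79 RPKM in cKO and 20.3, 23.7 and 22.1 RPKM in WT, a 10.2-fold decrease (log2 difference -2.87 ± 0.13 SE; limma adjusted p = 1.23e-05). Irs2, chosen after its values were seen, fell 3.65-fold (limma adjusted p = 0.00379), and 5.54-fold without cKO replicate 2. Grb10 and Grb14, which inhibit receptor signalling, rose 10.4-fold and 2.57-fold (limma adjusted p = 0.000827 and 0.000167), and the adaptor Sh2b1 rose 3.32-fold (9.18e-05). Sh2b1 also lies on chromosome 7, and its log2 difference of 1.61 was 0.97 with each chromosome centred.

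Of 21 genes of the PI3K, AKT and mTOR cascade, 8 rose and 5 fell, a share of 61.9% against 61.2% of all tested genes. The translation repressor Eif4ebp1 fell 4.82-fold, to 38.4 ± 5.88 RPKM in cKO against 185 ± 18.5 RPKM in WT (SD, n = 3 each; limma adjusted p = 3.45e-05). Foxo4, a transcription factor restrained by AKT, rose 2.6-fold, and the regulatory subunit Pik3r1 rose 1.91-fold (limma adjusted p = 0.000726 and 0.00099). The kinase Akt2 rose 1.78-fold, and did not pass once chromosome medians were subtracted (limma adjusted p = 0.239).

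In the growth hormone axis, which drives Igf1 transcription in liver and bone, 4 of 5 genes rose, where 34.7% of all tested genes were higher in cKO. The list itself was not tested. The receptor Ghr had 79.8, 60.2 and 78.9 RPKM in cKO and 16.2, 19.3 and 14.9 RPKM in WT, a 4.35-fold increase (log2 difference 2.05 ± 0.14 SE; limma adjusted p = 6.56e-05). Its transcription factors Stat5a and Stat5b rose 4.39-fold and 3.46-fold, with limma adjusted p of 0.00281 and 0.00089. Socs2, a feedback inhibitor that STAT5 induces, rose 5.39-fold, to 59.3 ± 10.6 RPKM in cKO against 11 ± 1.11 RPKM in WT (SD, n = 3 each; limma adjusted p = 4.54e-05). The kinase Jak2 did not pass (adjusted p = 0.281) and was lower without cKO replicate 2 (0.0073).

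**Figure D5:**
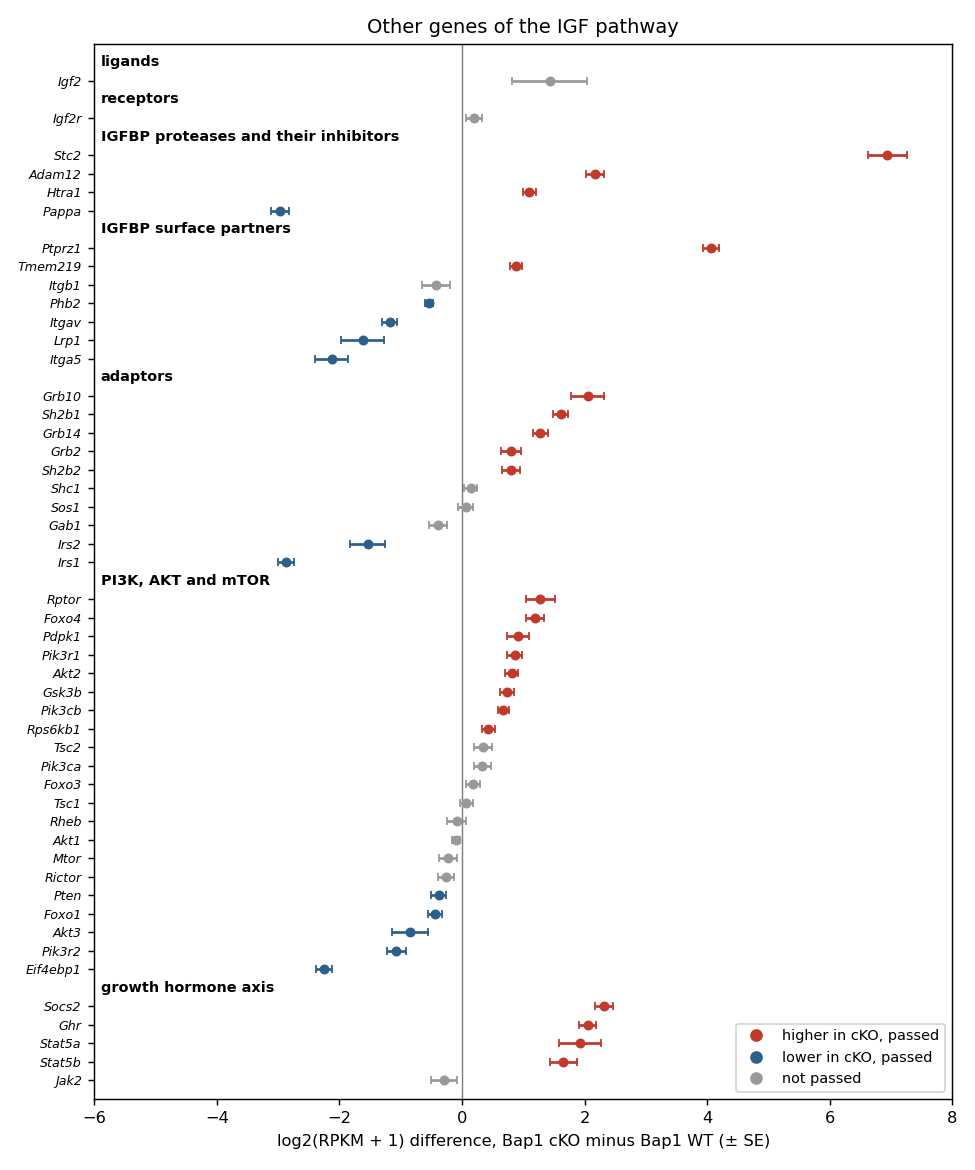
Log2(RPKM + 1) difference, cKO minus WT with SE bars, of the 49 tested pathway genes other than the members, grouped by role, with red for genes that passed as higher, blue for those that passed as lower and grey for those that did not pass. Stc2 at 6.94 lies farthest to the right and Pappa at -2.97 farthest to the left.

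Genes with the profile most like each tested member were found by the root mean square (RMS) difference of centred log2(RPKM + 1) values over the 6 libraries, with predicted genes and pseudogenes left out. Igfbp6 was nearest to the transcription factor Pax8, one of the kidney tubule markers, and the cysteine dioxygenase Cdo1, at 0.295 and 0.323 log2 units, where the RMS of the Igfbp6 profile itself was 3.73. Within cKO, Igfbp6 and Cdo1 were highest in replicate 1 and Pax8 in replicate 2. Igfbp7 was nearest to Atoh8 and Nqo1 (0.105 and 0.128). Atoh8 showed the same order of cKO libraries, with 5.98, 11.95 and 22.75 RPKM in cKO and 40.36, 34.95 and 42.81 RPKM in WT. Igfbp2 was nearest to Chrdl2 at 1.16 and the imprinted RNA H19 at 1.24, where the RMS of its own profile was 3.45. H19, the neighbour of Igf2, had 104, 50.6 and 86.3 RPKM in cKO and 0.63, 0.2 and 0.92 RPKM in WT. Igf1 was nearest to Lrrc17 and Ndn, both at 0.496 where its own profile had 1.17, and both had their lowest cKO value in replicate 2 and their highest in replicate 3. For Igf1r the nearest were Tmem98 and Marcksl1, for Igfbp5 Tango2 and Ropn1l, for Igfbp4 Tomm20 and Lbr, and for Insr Mtg2 and Eno1b, all within 0.101. Eno1b is a near-identical copy of Eno1, so its share of reads is uncertain. All 6 libraries enter each likeness, so the difference between the groups is part of it, and so is the order of the cKO libraries. A shared order with the member therefore follows from how the genes were picked. Igfbp2, Igfbp6, Pax8, Cdo1, Chrdl2, H19 and Ndn reached the minimum mean only through cKO, and Ropn1l and Eno1b only through WT. For these genes the pass of the filter already required a difference.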

How the data were processed

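RNA of 6 libraries was sequenced by the authors as stranded polyA libraries, per the labels' protocols. Tools listed in the submitters' processing notes are STAR 2.7.1a, RSEM 1.3.1 and cutadapt 2.8, with the build GRCm38. The annotation is not given in the sources used here. The authors deposited RPKM values with 2 decimals, and 0 columns of other samples are in the table. Symbols and coordinates came from GENCODE M21 (GRCm38), which held 55144 of 55471 identifiers. Fragments were estimated from value steps of genes with 1 transcript; within 0.2 of a whole number lay 74.7% to 88.7% of values. Floors of 3 fragments use the longest transcript and cover counting error only.

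Differences were fitted with limma 3.58.1 (R 4.3.3) on log2(RPKM + 1) for the 12223 genes averaging 1 RPKM or more, 2-sided, with a variance prior that follows the mean. Exact permutation of 3 against 3 libraries cannot go below 0.1. The fit was tested on simulated data. Folds are ratios of mean RPKM, given where the lower group reached the floor. Named genes are Bap1, the members, the 4 smallest p of each pathway list and the 2 nearest profiles; markers, genes listed at or near 0, Jak2, Irs2, Igf1os, H19 and the genes near Igfbp2 and Igfbp6 were named outside this rule, after their values were seen. The members and lists were chosen with earlier results of these data known. Sequences are RefSeq's. No pair of libraries shared more than 2.05% of tested values.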

Additional observations from a re-analysis of the deposited data

How the results depend on the processing

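Alternatives tried were a pseudocount of 0.5 or 0.1, a 5 RPKM minimum or none (genes above 0 in any library), equal totals, median of ratios and quantile scaling, a prior without trend, sample weights, the replicate block, chromosome centring, and leaving out each library. Settings for pathway and neighbour genes were added after seeing the data. Igfbp2, Igfbp5, Igfbp6 and Igfbp7 kept direction and call wherever they were tested. The call of Igfbp7 lay close to the threshold when any 1 WT library was left out (limma adjusted p = 0.0485 to 0.0499). With a minimum of 5 RPKM, 1 member was lower, since Igfbp5 was then not tested. Chromosome centring shifted the median of all genes by -0.125, ended the call of Igf1r (0.59, adjusted p = 0.0686) and turned Igfbp4 to -0.26. Insr passed under median-of-ratios scaling (-0.47, adjusted p = 0.0418). Leaving out 1 library gave 0.17 to 1.96 for Igf1, -0.52 to -0.24 for Insr and -0.15 to 0.42 for Igfbp4. The count of genes higher in cKO ran from 3241 to 4714 and of genes lower from 2487 to 3862. Among pathway genes, 18 to 25 were higher and 9 to 14 lower.

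Same-numbered libraries of the groups did not deviate together (r = -0.017, 0.05 and -0.019 across genes), so no pairing by number was seen. The labels state no pairing, and these correlations cannot show that the libraries are unpaired. With the replicate block 3811 genes were higher and 2938 lower, and 3 members were higher and 2 lower. The block log2 difference of Igf1r was 1.23 (adjusted p = 0.0069). Depth limits Igfbp1, Igfbp3 and the WT levels of Igfbp2 and Igfbp6.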
